A study of Mus musculus with 5 samples.

Results

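Cytochrome P450 enzymes and the dehydrogenases and reductases that act on steroids were followed in uteri of mice aged 15 days that lacked Dicer in cells expressing the progesterone receptor. Members were taken by their name on the array, which had to begin with CYP or HSD and a digit, with SRD5A or with AKR1C. CYP26A1 was left out. The rule took 163 of 45281 probes, which belonged to 99 of 29527 genes, and each gene was read from its probe with the highest mean log2 signal over all 5 arrays. Of the 99 genes, 71 encode P450 enzymes and 28 encode the other enzymes.

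The mice were on a mixed hybrid background of C57BL/6J and 129S5/Brd. Dicer, the enzyme that cuts microRNA precursors, was deleted in the cKO mice by Cre recombinase made from the progesterone receptor locus, so cells without that receptor keep the gene. The controls are labelled wild type, and their alleles at the Cre and Dicer loci were not stated further. Each sample was total RNA from a pool of uteri read on 1 Illumina bead array, with 3 pools from controls (numbers 7, 9 and 11) and 2 from Dicer cKO mice (numbers 10 and 12). Values per pool are given in that order. The number of uteri in a pool is not stated, so the p-values cover only the variation seen among these 5 pools. Between 47.0% and 49.5% of all probes were detected on an array, with a median of 44 beads per probe. The probe of Dicer1 was lower in the Dicer cKO pools (-0.43 ± 0.09 on the log2 scale, SE of the limma fit, adjusted p = 0.0224). That of Pgr, the progesterone receptor gene, was also lower (-0.77 ± 0.14, limma adjusted p = 0.00895). Cre is made from the Pgr locus, so the Cre allele and the loss of Dicer cannot be told apart in these groups. Uterine and muscle genes were present in every pool: Hoxa10, Hoxa11, Esr1, Myh11 and Acta2 were detected on all 5 arrays, while the probe of Emx2 was detected on none.

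P450 enzymes are haem proteins that insert oxygen into lipids, steroids and foreign compounds, with electrons passed on by reductases or ferredoxin. Some build cholesterol, bile acids and steroid hormones, and others clear hormones, vitamin D, retinoic acid, fatty acids and drugs. Hydroxysteroid dehydrogenases, steroid reductases and AKR1C enzymes then switch steroids between active and inactive forms, which sets the hormone that reaches a receptor inside a target tissue such as the uterus. The uterus is better known for this local conversion than for making steroids from cholesterol.

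Promoter sequences are shown for 5 members. Cyp2f2 and Akr1c12 fell, Cyp4f18 rose, and Cyp51 and Hsd17b7 are the members that act in cholesterol synthesis and had the same order of pools. Cyp39a1, which also fell, is not shown because it had no promoter entry. RefSeq promoters of build GRCm38.p6 were available for 77 of the 99 genes, and the 250 bases before the start are printed 5′ to 3′ on the strand of the gene. Capitals mark matches to 6 motifs searched on both strands, chosen after the sequences had been seen. The motifs were GGTCA, the core bound by oestrogen and related receptors (35.2% of 32851 promoter windows of this length hold it), TGTTCT, the core bound by progesterone and glucocorticoid receptors (16.1%), and CCAAT, the CCAAT box (33.8%). The others were TCACCNCA, a form of the sterol regulatory element (3.61%), TGTTTAC, a forkhead element (3.17%), and TATAAA, the TATA box (12.4%).
Cyp2f2, chr7:27119705-27119954, plus strand: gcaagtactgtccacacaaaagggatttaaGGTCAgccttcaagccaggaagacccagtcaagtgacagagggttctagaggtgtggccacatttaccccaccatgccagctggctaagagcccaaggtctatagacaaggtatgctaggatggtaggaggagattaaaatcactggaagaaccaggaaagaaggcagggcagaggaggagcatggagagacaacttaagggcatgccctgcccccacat
Akr1c12, chr13:4279400-4279649, minus strand: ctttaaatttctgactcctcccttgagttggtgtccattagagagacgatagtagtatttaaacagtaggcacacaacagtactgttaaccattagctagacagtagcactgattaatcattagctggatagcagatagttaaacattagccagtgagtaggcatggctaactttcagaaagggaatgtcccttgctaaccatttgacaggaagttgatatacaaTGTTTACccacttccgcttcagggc
Cyp4f18, chr8:72009627-72009876, minus strand: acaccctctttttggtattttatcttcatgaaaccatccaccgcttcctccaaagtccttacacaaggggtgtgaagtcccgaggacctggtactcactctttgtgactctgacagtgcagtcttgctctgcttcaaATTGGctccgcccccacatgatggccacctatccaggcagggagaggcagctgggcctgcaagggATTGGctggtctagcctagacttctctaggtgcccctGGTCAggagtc
Cyp51, chr5:4104698-4104947, minus strand: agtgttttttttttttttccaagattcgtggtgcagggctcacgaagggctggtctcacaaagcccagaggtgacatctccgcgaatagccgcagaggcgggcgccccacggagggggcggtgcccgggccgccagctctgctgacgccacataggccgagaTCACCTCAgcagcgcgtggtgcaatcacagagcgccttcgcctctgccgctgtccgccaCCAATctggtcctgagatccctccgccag
Hsd17b7, chr1:169969206-169969455, minus strand: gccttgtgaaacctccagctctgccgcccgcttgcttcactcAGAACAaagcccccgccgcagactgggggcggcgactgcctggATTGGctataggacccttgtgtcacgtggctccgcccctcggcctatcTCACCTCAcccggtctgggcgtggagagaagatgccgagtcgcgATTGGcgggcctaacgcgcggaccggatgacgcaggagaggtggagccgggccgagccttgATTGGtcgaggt
No 2 matches overlapped in these windows. Cyp51 and Hsd17b7 each held TCACCNCA once, at 88 and 117 bases before the start, together with 1 and 3 CCAAT boxes. Akr1c12 held the forkhead letters at 25 bases before the start. GGTCA lay at 220 bases before the start in Cyp2f2 and at 11 in Cyp4f18, which also held 2 CCAAT boxes. Hsd17b7 held TGTTCT at 208 bases before the start, on the other strand. A match is a stretch of letters and does not show that a factor binds there.

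Most of the family gave no signal above background. A probe counted as detected on an array where its detection p was under 0.05. Of the 99 genes, 61 were detected on no array, 4 on 1 array, 7 on 2 to 4 arrays and 27 on all 5. By array, the number detected was 35, 32 and 32 in the controls, against 31 and 28 in the Dicer cKO pools. The 34 genes detected on at least 2 arrays were tested, which is 34.3% of the members against 53.3% of all genes on the array.

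**Figure D1:**
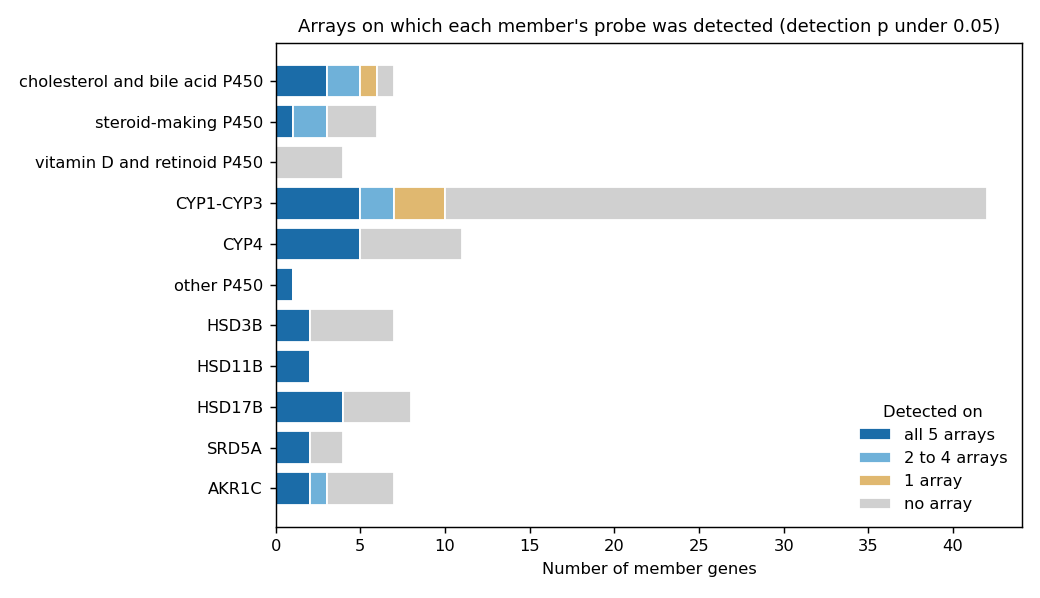
Number of member genes per role group by the number of arrays on which the probe used was detected. All 4 vitamin D and retinoid P450 genes were detected on no array, and of 42 genes of families CYP1 to CYP3, 32 were detected on none.

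The undetected members include several with well-known endocrine roles. Among the P450 genes for steroid synthesis, Cyp19a1, which encodes aromatase, Cyp21a1 and Cyp11b1 were detected on no array. The same was true of Cyp24a1 and Cyp27b1, which break down and make active vitamin D, of Cyp2r1, which acts before them, and of the retinoic acid hydroxylase gene Cyp26b1. Akr1c18, whose product breaks down progesterone, Hsd17b2, whose product inactivates oestradiol, and Srd5a2, a reductase gene of the male reproductive tract, were likewise detected on no array. So were Cyp1a1 and Cyp1a2, the classic targets of the dioxin receptor, and the liver gene Cyp7a1. The genes detected on a single array were Cyp2a5, Cyp2g1, Cyp3a13 and Cyp46a1, each on control pool 7. A probe not above background gives an upper bound for its gene and does not show that the gene is silent. Hsd17b11 is such a case, since the probe named for it was detected on no array, while 3 probes under its older name Dhrs8 were detected on all 5 and differed by 0.11 ± 0.17, 0.04 ± 0.14 and 0.07 ± 0.16 between groups.

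Of the 34 tested members, 3 fell, 1 rose and 30 did not pass. A gene was called where the limma p, adjusted by Benjamini-Hochberg over all 15727 tested genes, was under 0.05. Over all tested genes 6.77% were called, 3.97% lower and 2.80% higher in Dicer cKO uteri. The genes that fell were Cyp2f2, Cyp39a1 and Akr1c12, and the gene that rose was Cyp4f18. The median difference of the tested members was -0.08, with a range from -2.08 to 0.54, and the median of all tested genes was 0.01. In 15 of the 34 members the Dicer cKO pools lay wholly outside the control pools, 11 below and 4 above, beside 37.6% of all tested genes (17.6% below, 19.9% above). At an unadjusted limma p under 0.05 there were 15 members, beside 20.8% of all tested genes. Differences are Dicer cKO minus control on a log2 scale after an offset of 16, which makes the differences of dim probes smaller, and errors are SE of the fit with 3 and 2 pools.

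**Figure D2:**
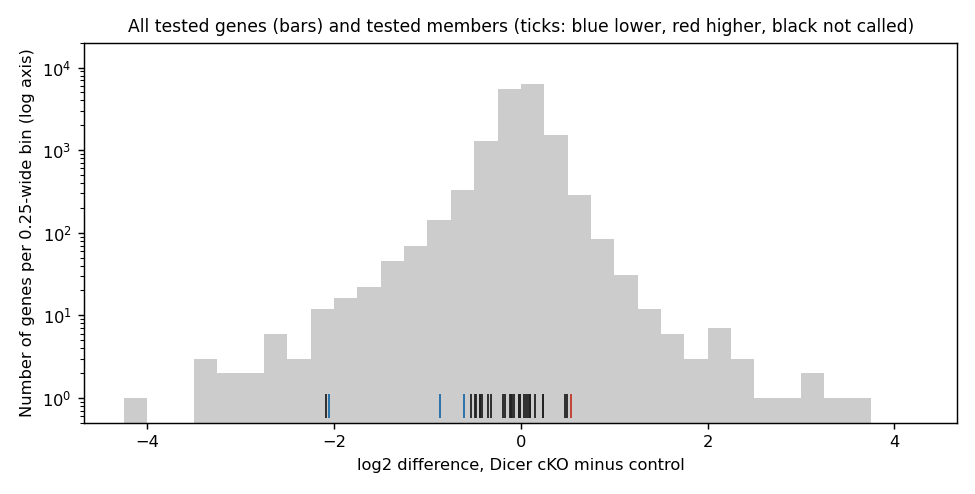
Number of tested genes per bin of log2 difference (grey bars, log axis, 15727 genes) with the 34 tested members as ticks. Members span -2.08 to 0.54, with Cyp2e1 and Cyp2f2 set apart at the low end.

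Cyp2f2 was above background in the control pools alone. It encodes a P450 known from the club cells of the airway, where it oxidises naphthalene and other small foreign compounds. Its log2 signal was 6.79, 7.17 and 6.78 in the controls and 4.85 and 4.87 in the Dicer cKO pools. The deposited intensities were 154.9, 179.6 and 131.1 in the controls against 56.9 and 59.2 in the Dicer cKO pools. All control pools were detected and neither Dicer cKO pool was, so the gene passed the filter only through the group where it was high. On the background-corrected scale the signal was at least 3.75-fold lower in Dicer cKO uteri, measured against the lowest detected signal of each array. This bound holds for that scale only: the fitted log2 difference was -2.05 ± 0.15, but -1.16 without background correction and -1.29 with an offset of 50. The limma adjusted p was 5.9e-05, and it was 2.6e-04 with no detection filter, where the gene did not depend on its high group to be tested. With a pool left out it was at most 0.00248. In whole uteri, fewer cells of a type and less RNA per cell cannot be told apart.

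Markers of the uterine glands were read in the same pools. Of 5, Cxcl15 (-2.70 ± 0.20, detected on 1 Dicer cKO array) and Foxa2 fell, Spink1 was tested without passing (-0.35 ± 0.18), and Prss28 and Prss29 were detected on no array. Foxa2, the forkhead factor of gland cells, was detected on the 3 control arrays alone and so was tested only through its high group, with a bound of at least 1.12-fold lower (limma adjusted p = 0.0060). The summed signal of the list ran from 333 to 411 in the control pools and was 133 and 148 in the Dicer cKO pools. Most of the fall in that sum came from Cxcl15, at log2 7.93, 8.14 and 7.77 in the controls against 4.91 and 5.59. The part of the gland markers in the difference of Cyp2f2 was not tested. Of 7 epithelial markers 4 also fell, with a summed signal from 8611 to 11371 in the controls against 6071 and 6097. Krt8 was the brightest of the 7 in every pool and weighed most in that sum. Cdh1 (-0.27 ± 0.11) and Cldn7 (0.35 ± 0.22) did not pass, and Epcam was detected on no array. Falls were not limited to these lists. Of 6 stromal markers, Vim (-0.82 ± 0.12) and Thy1 (-0.79 ± 0.11) fell and 4 did not pass. Of 4 oviduct markers, Ovgp1 fell (-2.57 ± 0.39), Foxj1 did not pass and 2 were detected on no array. Of 4 mast cell markers, Hdc fell (-2.13 ± 0.39) and 3 did not pass. Of 6 smooth muscle and 4 endothelial markers 0 were called. The part of these lists in the difference of Cyp2f2 was not tested either.

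**Figure D3:**
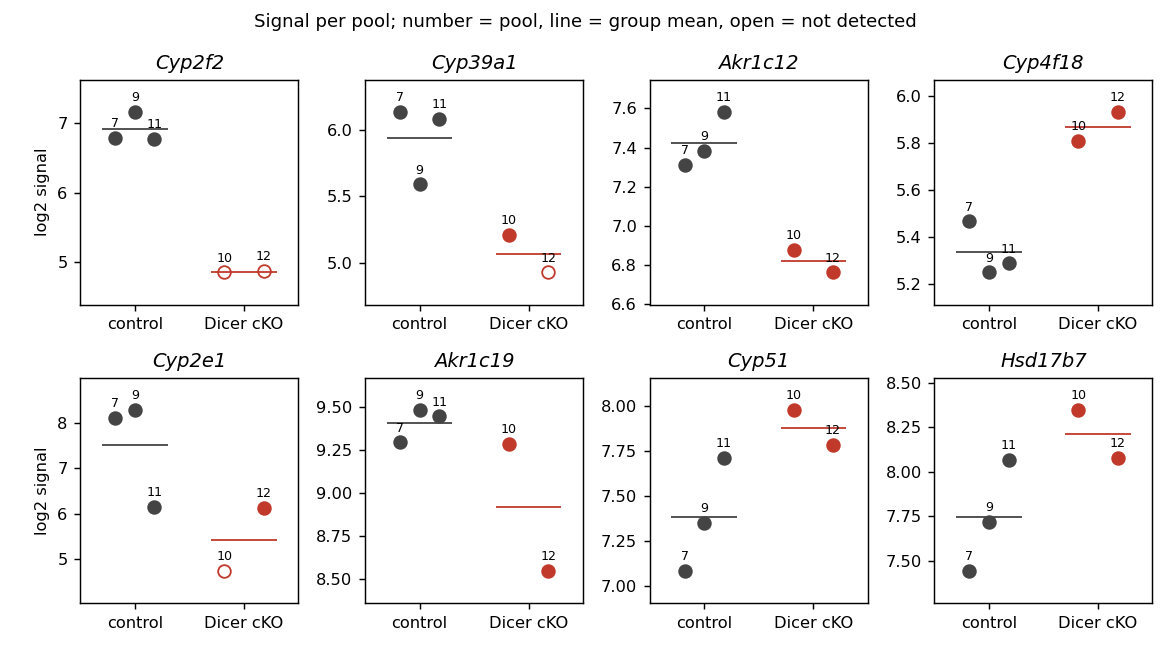
Log2 signal of 8 members in each pool, with group means as lines and open symbols where the probe was not detected; the vertical scales differ between panels. Cyp2f2 separates the groups by about 2 log2 units, while for Cyp2e1 and Hsd17b7 control pool 11 lies next to Dicer cKO pool 12.

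Cyp2e1, which encodes an ethanol- and acetone-oxidising P450, had as large a difference but did not pass. Its log2 signal was 8.11 and 8.28 in control pools 7 and 9, and 6.15 in control pool 11. In Dicer cKO pools 10 and 12 it was 4.74, where the probe was not detected, and 6.12. The groups did not overlap, yet control pool 11 and Dicer cKO pool 12 were nearly level. The difference of -2.08 ± 0.58 had a 95% interval from -3.38 to -0.79 (limma adjusted p = 0.0645). Without control pool 11 the difference was -2.78 and was called (limma adjusted p = 0.00305), and without Dicer cKO pool 10 it was -1.39 (limma adjusted p = 0.468). Of 6 adipocyte markers, Adipoq and Cfd fell, Lep (-0.21 ± 0.27, highest in control pool 11) and Pck1 (0.15 ± 0.17) did not pass, and Plin1 and Fabp4 were detected on no array. Their summed signal was 3660, 2580 and 2003 in the controls and 762 and 1599 in the Dicer cKO pools. Cfd was the brightest of the 6 in every pool and weighed most in that sum. The part of the adipocyte markers in the values of Cyp2e1 was not tested.

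The other 5 tested genes of families CYP1 to CYP3 did not pass. Cyp2s1, a P450 gene of epithelia, read 7.60, 7.32 and 7.34 in the controls and 6.78 and 7.11 in the Dicer cKO pools, a log2 difference of -0.48 ± 0.15. Cyp2j9, of a family that oxidises arachidonic acid, differed by -0.54 ± 0.15, also without overlap between the groups. Their limma adjusted p were 0.0926 and 0.0732. Cyp1b1, whose product hydroxylates oestrogens and foreign compounds, differed by 0.10 ± 0.17 with a 95% interval from -0.29 to 0.48. Cyp2d22 differed by 0.09 ± 0.13 and Cyp2c65 by -0.07 ± 0.14, and in each of these 3 genes the groups overlapped.

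Among P450 genes for cholesterol and bile acids, Cyp39a1 fell. It encodes a hydroxylase of oxysterols on the way to bile acids. Its log2 signal was 6.14, 5.59 and 6.08 in the controls and 5.21 and 4.93 in the Dicer cKO pools. The probe was detected on every array but that of Dicer cKO pool 12, and the groups did not overlap. The difference was -0.87 ± 0.19 (limma adjusted p = 0.0232), with control and Dicer cKO means of 5.94 and 5.07. The call was lost when control pool 7 (limma adjusted p = 0.0840) or 11 (0.0604) or Dicer cKO pool 10 (0.0905) or 12 (0.117) was left out, and with no detection filter (0.0677). Without background correction or with an offset of 50 the log2 difference was -0.44 and -0.50, still called. The other probe of the gene was detected on no array.

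Other tested genes of oxysterol and bile acid metabolism did not pass. Cyp7b1, another oxysterol hydroxylase gene, was level, at 9.35, 9.39 and 9.43 in the control pools and 9.30 and 9.43 in the Dicer cKO pools. Its log2 difference was -0.02 ± 0.09, with a 95% interval from -0.22 to 0.18. Cyp27a1, a mitochondrial sterol hydroxylase gene, differed by -0.36 ± 0.14 (limma adjusted p = 0.182), and its other 2 probes by -0.30 ± 0.14 and -0.28 ± 0.13. Dicer cKO pool 12, at 10.12, lay among the controls. With 1 pool left out, the difference of Cyp27a1 ran from -0.58, without that pool, to -0.13. Hsd3b7, a dehydrogenase gene of bile acid synthesis, read 10.76, 10.74 and 10.58 in the control pools and 10.32 and 10.44 in the Dicer cKO pools. Its difference was -0.31 ± 0.09 (limma adjusted p = 0.0610), and its other probe gave -0.27 ± 0.09. Cyp8b1 was close to background, detected on 2 of 5 arrays, at -0.17 ± 0.15.

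**Figure D4:**
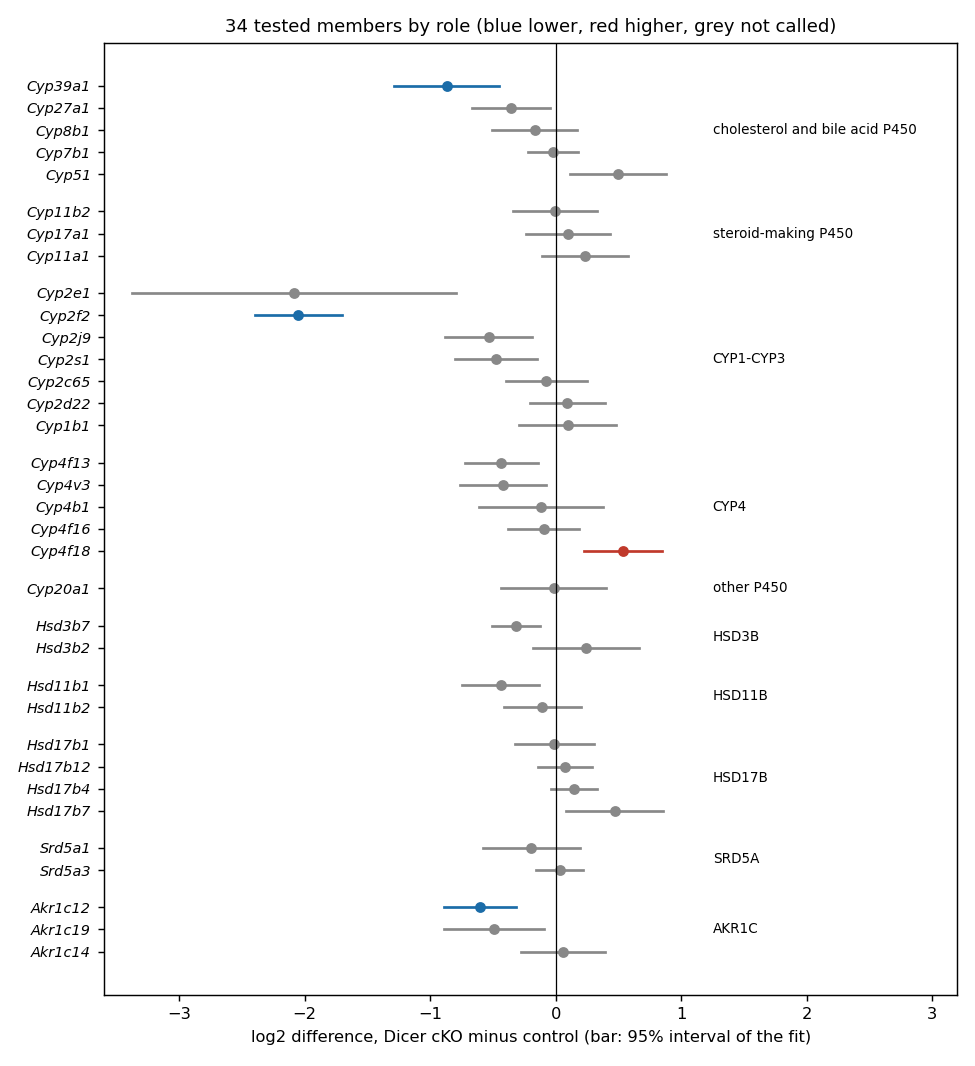
Log2 difference (Dicer cKO minus control) of the 34 tested members with its 95% interval, grouped by role; blue marks called lower, red called higher and grey not called. The intervals of Cyp2f2, Cyp39a1 and Akr1c12 lie below 0 and that of Cyp4f18 above it, and several grey intervals also exclude 0.

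Cyp51 and Hsd17b7, the members that act in cholesterol synthesis, were higher in both Dicer cKO pools than in any control pool without passing the test. Cyp51 encodes the demethylase of lanosterol, and Hsd17b7 a sterol ketoreductase that can also make oestradiol. Cyp51 read 7.09, 7.35 and 7.71 in the controls and 7.97 and 7.78 in the Dicer cKO pools, a log2 difference of 0.50 ± 0.17 (limma adjusted p = 0.132). Hsd17b7 read 7.44, 7.72 and 8.07 in the controls and 8.35 and 8.08 in the Dicer cKO pools, a log2 difference of 0.47 ± 0.17 (limma adjusted p = 0.155). In both genes the pools stood in the same order, with control pool 7 lowest and Dicer cKO pool 10 highest. Without control pool 11 both were called, at 0.66 (limma adjusted p = 0.0331) and 0.63 (limma adjusted p = 0.0425). Of 13 other settings, each gene was called in that 1 only. With 1 pool left out, the difference ran from 0.35 to 0.66 for Cyp51 and from 0.32 to 0.63 for Hsd17b7.

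Other genes of cholesterol synthesis and uptake were examined from a list. Of 22 listed genes, 21 were on the array and 19 were tested, and 0 were called by limma, with 4 at an unadjusted p under 0.05. Their median difference was 0.10, with a range from -0.20 to 0.45. Fdps (0.45 ± 0.14), Hmgcs1 (0.36 ± 0.10) and Lss (0.36 ± 0.15) were higher in both Dicer cKO pools than in any control pool, with limma adjusted p from 0.0551 to 0.199. Over the 19 tested genes, the Dicer cKO pools lay above all control pools in 4 and below them in 1. Of all tested genes, 37.6% did not overlap in either direction. Hmgcs1 was called with a robust spread (limma adjusted p = 0.0482). With 1 pool left out, its difference ran from 0.21 to 0.51 and that of Fdps from 0.23 to 0.66. The highest value of each was without Dicer cKO pool 12. Hmgcs1 and Fdps were called there too, in a fit that holds 1 Dicer cKO pool. The late enzyme genes Dhcr7 and Sc5d differed by -0.10 ± 0.12 and -0.06 ± 0.14. The genes named from this list were chosen after their values were seen.

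**Figure D5:**
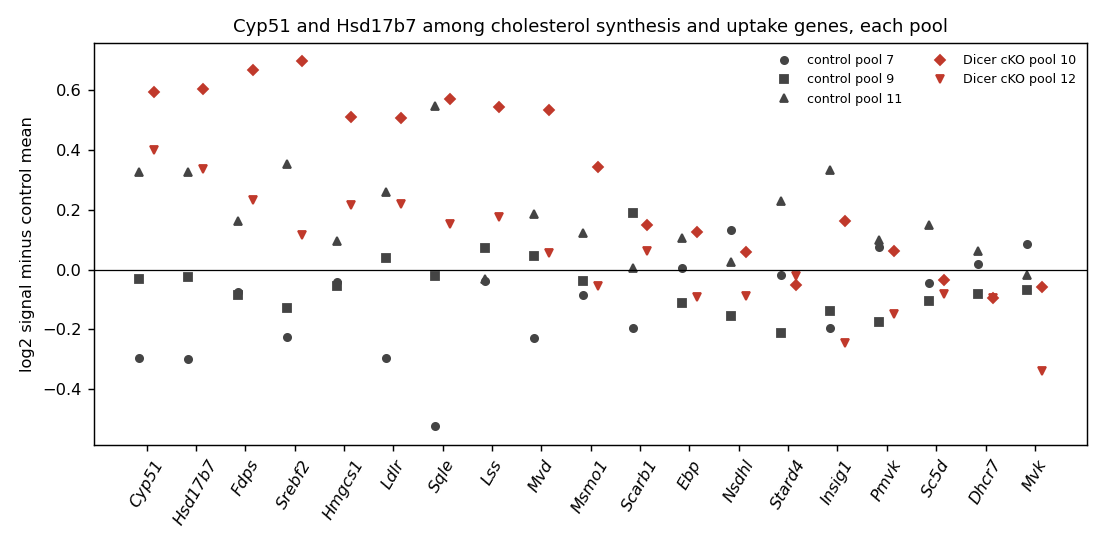
Log2 signal of Cyp51, Hsd17b7 and 17 of the 19 tested genes of cholesterol synthesis and uptake in each pool, relative to the control mean of each gene. Dicer cKO pool 10 (diamonds) lies highest for the genes at the left, and control pool 11 (upward triangles) lies above the other controls for many of them.

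P450 genes for steroid hormone synthesis gave weak or no signals, and of 6 genes 3 were tested and none passed (0 called by limma, 0 at an unadjusted p under 0.05). Cyp11a1, which cleaves the side chain of cholesterol, was detected on all 5 arrays at 5.20, 5.50 and 5.11 in the controls and 5.46 and 5.55 in the Dicer cKO pools. Its log2 difference was 0.23 ± 0.15, with a 95% interval from -0.11 to 0.58 and values from 0.11 to 0.35 over the other settings. The groups overlapped, and of its 3 other probes 1 was detected on 1 array and the others on none. Cyp17a1 and Cyp11b2, detected on 2 arrays each, differed by 0.10 ± 0.15 and -0.01 ± 0.15. Of 10 genes listed as markers of the ovary and adrenal, 3 were detected on all arrays. These were Inha (log2 5.58 to 5.97), Foxl2 (6.36 to 6.76) and Gdf9 (6.63 to 6.87). Of the list 0 were called by limma, also 0 at an unadjusted p under 0.05. The cholesterol carrier Star, Nr5a1, Amh, Fshr, Lhcgr, Zp3 and Mc2r were detected on no array. The summed signal of that list was 401 to 426 in the control pools and 395 and 410 in the Dicer cKO pools.

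Of family CYP4, whose members oxidise the ends of fatty acids and related lipids, 5 genes were tested, of which 1 rose and 4 did not pass. Cyp4f18 encodes an enzyme that inactivates leukotriene in neutrophils and other myeloid cells. Its log2 signal was 5.47, 5.25 and 5.29 in the controls and 5.81 and 5.93 in the Dicer cKO pools, so the groups did not overlap. The difference was 0.54 ± 0.14 with a limma adjusted p of 0.0482, just within the threshold. The call was lost with any 1 pool left out, with limma adjusted p of 0.0671, 0.147 and 0.101 without control pools 7, 9 and 11 and 0.186 and 0.160 without Dicer cKO pools 10 and 12. It was also lost with cyclic loess (0.0610), with no detection filter (0.170) and with every probe tested (0.0524). Without background correction or with an offset of 50 the difference was 0.27 and 0.32, still called. Of its 2 other probes, 1 was detected on Dicer cKO pool 12 alone and the other on no array. Of 5 macrophage markers 2 rose, Cd68 and Lyz2, and all 5 were detected on all arrays. Their summed signal was 1107 to 1292 in the control pools and 1615 and 1995 in the Dicer cKO pools. Lyz2 was the brightest of the 5 in every pool and weighed most in that sum. The part of the macrophage markers in the difference of Cyp4f18 was not tested.

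The remaining CYP4 genes did not pass. Cyp4f13 read 8.43, 8.26 and 8.07 in the control pools and 7.71 and 7.92 in the Dicer cKO pools, a log2 difference of -0.43 ± 0.13 (limma adjusted p = 0.0843). Cyp4v3, a fatty acid hydroxylase gene, differed by -0.42 ± 0.15 (limma adjusted p = 0.151). Dicer cKO pool 12, at 7.43, lay close to its lowest control at 7.54. With 1 pool left out, the difference of Cyp4v3 ran from -0.65, without Dicer cKO pool 12, to -0.19. Cyp4b1 (-0.12 ± 0.22) and Cyp4f16 (-0.09 ± 0.13) overlapped between the groups, as did Cyp20a1 (-0.02 ± 0.19), a P450 gene of unsettled function.

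Among the AKR1C genes, Akr1c12 fell. The AKR1C enzymes reduce steroids and other carbonyl compounds, and the mouse genes form a cluster of close copies whose transcripts these probes were not tested to tell apart. Akr1c12 read 7.31, 7.38 and 7.58 log2 units in the controls and 6.88 and 6.76 in the Dicer cKO pools. All 5 arrays detected the probe and the groups did not overlap. The difference was -0.61 ± 0.13 (limma adjusted p = 0.0218), which is 1.52-fold. The call was lost when control pool 9 (limma adjusted p = 0.0616) or 11 (0.0574) or Dicer cKO pool 10 (0.102) or 12 (0.0867) was left out, with differences from -0.66 to -0.53. The gene's other probe was detected on no array.

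Akr1c19 did not pass, and its pools differed within the Dicer cKO group. It read 9.30, 9.48 and 9.45 in the control pools, 9.29 in Dicer cKO pool 10 and 8.55 in pool 12. The log2 difference was -0.49 ± 0.18 (limma adjusted p = 0.151). Without Dicer cKO pool 10 it was -0.86 and was called (limma adjusted p = 0.0138), and without pool 12 it was -0.12. Akr1c14, a dehydrogenase gene for dihydrotestosterone-type steroids, was detected on 2 arrays and differed by 0.06 ± 0.15.

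The tested hydroxysteroid dehydrogenases that set local glucocorticoid levels did not pass. Hsd11b1, whose product regenerates active glucocorticoid, read 7.40, 7.20 and 7.10 in the controls and 6.69 and 6.89 in the Dicer cKO pools. The groups did not overlap, and the log2 difference was -0.44 ± 0.14 (limma adjusted p = 0.0938). Its 2 other detected probes differed by -0.21 ± 0.18 and -0.33 ± 0.17. Hsd11b2, whose product inactivates glucocorticoid, read 8.84, 9.15 and 9.32 in the controls and 9.09 and 8.90 in the Dicer cKO pools, with a log2 difference of -0.11 ± 0.14 and a 95% interval from -0.42 to 0.20. The other probe of Hsd11b2 gave -0.06 ± 0.14.

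Of the HSD17B genes other than Hsd17b7, none of the 3 tested was called by limma, and none had an unadjusted p under 0.05. Hsd17b4, a peroxisomal enzyme of fatty acid breakdown, differed by 0.15 ± 0.08, with log2 signals of 11.20, 11.38 and 11.36 in the control pools and 11.50 and 11.42 in the Dicer cKO pools, which lay just above the controls. Hsd17b12, which acts in fatty acid elongation, differed by 0.07 ± 0.10. Hsd17b1, which makes oestradiol in the ovary, differed by -0.01 ± 0.14 with a 95% interval from -0.32 to 0.30.

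Hsd3b2 was the detected member of the HSD3B genes for hormone synthesis. It read 8.68, 9.41 and 8.75 in the controls and 9.12 and 9.26 in the Dicer cKO pools, with overlapping groups and a log2 difference of 0.24 ± 0.19. The probes disagree, since the 5 other probes of this name were detected on no array, and the HSD3B genes are close copies of each other. Of the steroid reductase genes, Srd5a1, which reduces testosterone and progesterone, differed by -0.20 ± 0.17. A probe of Srd5a1 under a cDNA name gave 0.09 ± 0.13, and neither was called. Srd5a3, which acts mainly in protein glycosylation, was level at 0.03 ± 0.09, with a 95% interval from -0.16 to 0.22 and its other probes at 0.03 ± 0.09 and -0.05 ± 0.11.

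Partner genes of these enzymes were read from lists. Of 13 electron partners of P450 enzymes, 12 were on the array and 10 were tested, of which 1 fell, 0 rose and 9 did not pass, with a median of -0.14. The gene that fell was Cyb5r3, the reductase of cytochrome b5, at 12.46, 12.18 and 12.23 in the controls and 11.43 and 11.61 in the Dicer cKO pools (-0.77 ± 0.10, limma adjusted p = 0.00147). Por, the main electron donor of microsomal P450 enzymes, was level at -0.01 ± 0.10. Of 9 tested genes of steroid supply and conjugation 2 fell, with a median of -0.18. Sult2b1, which adds sulfate to cholesterol and related steroids, read 6.13, 5.90 and 5.85 in the controls and 4.87 and 4.66 in the Dicer cKO pools, where the probe used was not detected. Its limma adjusted p was 0.00145, and 0.00582 with no detection filter. The size is not given, since the low group was below detection and another probe of Sult2b1 was detected on every array. The difference of that other probe is not given either, so the fall is stated for the probe used only. Sult1a1, a phenol sulfotransferase gene, also fell (-1.02 ± 0.26, limma adjusted p = 0.0450). That call was lost in 7 of 13 other settings, among them each setting that left out a pool other than control pool 11 (limma adjusted p from 0.0685 to 0.359).

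Genes that answer to foreign compounds were a further list. Of 11 tested, 2 fell, 1 rose and 8 did not pass, with a median of -0.19. Gsta4, a glutathione transferase gene, fell by 0.66 ± 0.10 (limma adjusted p = 0.00495), and Ephx1, the microsomal epoxide hydrolase gene, fell by 0.58 ± 0.12 (limma adjusted p = 0.0180). Hmox1, which breaks down haem, was detected on the Dicer cKO arrays alone and so was tested only through its high group. It was at least 1.29-fold higher there on the background-corrected scale (limma adjusted p = 0.0217, and 0.0168 with no detection filter). The call of Ephx1 was lost when control pool 7, control pool 9 or Dicer cKO pool 10 was left out, and with no intensity trend (limma adjusted p from 0.0585 to 0.142). The call of Hmox1 was lost without control pool 7 (limma adjusted p = 0.0788) or 9 (0.0728), and the gene was not tested without a Dicer cKO pool. The probe of the dioxin receptor gene Ahr was detected on no array. Among 10 tested partners of vitamin D and retinoids, 1 fell and 1 rose, with a median of 0.05: Lrp2, which takes up the vitamin D carrier, at -3.29 ± 0.35, and Aldh1a3, which makes retinoic acid, at 3.53 ± 0.10. The call of Lrp2 was lost with a robust spread (limma adjusted p = 0.0649).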

How the data were processed

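The authors deposited, for each array, the mean bead intensity of 45281 probes on a linear scale, with bead SD and bead number per the file headers. The deposited detection score is a fraction from 0 to 1 that rises with signal, and 1 minus it served as detection p. BeadStudio is named per the submitters' processing notes, and the lowest intensities per array were 27.9 to 29.5, with none at or below 0. The labels name a human WG-6 chip, while the gene names fit mouse. From the intensities, neqc of limma 3.58.1 in R 4.3.3 gave log2 values (normexp from detection p, offset 16, quantile normalization). Names came from the RefSeq table of GRCm38.p6: of 99 members 94 matched a symbol, 4 a synonym, and 1 kept its array name. Of 29527 genes, the 15727 whose probe was detected (p under 0.05) by 2 or more of the 5 arrays were tested 2-sided with limma (lmFit, eBayes with trend, no covariate, Benjamini-Hochberg), checked on simulated data. The authors' quantile-normalized table of intensities, whose rows could not be named, served for a count. The members and lists were chosen with earlier results of these data known. The naming rule took called members, members detected in 1 group alone, the 2 brightest and the most changed of each role group; other members were named with their values known. Single values of 2 listed cholesterol genes are not reported here. Slides and scans are not labelled, so batches were not tested.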

Additional observations from a re-analysis of the deposited data

How the results depend on the processing

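No paired analysis was possible because the groups share no pool number. The count of called members was 4, and it was 2 with detection required on all 5 arrays, where fewer members were tested (27, Cyp2f2 and Cyp39a1 not among them), and 2 with no detection filter, where 29527 genes were tested. It stayed at 3 or 4 without background correction, with an offset of 50, with cyclic loess, without the intensity trend, with a robust spread and with every probe tested. With 1 pool left out, called members ran from 2 to 4, all called genes from 275 (without Dicer cKO pool 10) to 957, and called partner genes from 5 to 10, against 4, 1065 and 8. The genes changed with the pool, and Cyp2f2 was the member called in all 5 of these settings. The authors' value table gave 1295 called rows. That count was over all its rows, with no detection filter and no choice of 1 probe per gene, so it is not a count of genes. With a pool left out, 12 members that were never called changed sign: Akr1c14 (-0.0375 to 0.105), Cyp1b1 (-0.0614 to 0.249), Cyp2c65 (-0.180 to 0.0322), Cyp2d22 (-0.0488 to 0.232), Cyp4b1 (-0.50 to 0.26), Cyp4f16 (-0.16 to 0.0041), Hsd11b2 (-0.24 to 0.0030), Hsd17b1 (-0.0842 to 0.0621), Srd5a3 (-0.0332 to 0.0928), Cyp7b1 (-0.0859 to 0.0431), Cyp20a1 (-0.30 to 0.27) and Cyp11b2 (-0.0912 to 0.0939). No member changed sign in another setting. With 5 arrays and 61 members below detection on all of them, differences in the undetected members could not be measured.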
